A study of Mus musculus with 36 samples.

Results

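The homeodomain factor genes of the Meis, Pbx and Tshz families, 7 in all, were followed across the 12 culture conditions of a mouse embryonic stem cell study. The 7 members, Meis1, Meis2, Meis3, Pbx2, Pbx3, Tshz1 and Tshz2, were taken by symbol from the 21516 genes in the deposited count tables. All 7 were found and all 7 had enough counts to enter the test across 13498 genes. Tshz2 entered through the RA libraries, at 28, 13 and 21 counts, and had 8 or fewer in every other library. Its call as higher in RA is therefore a description. Membership rests on the symbols, but the list of symbols was drawn up with earlier results of these data known, so the share of members that moved is a description.

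MEIS and PBX proteins are homeodomain factors of the TALE class, whose homeodomain carries an extra loop of amino acids. They bind DNA together with each other and with HOX proteins, and these complexes set the DNA preference of HOX factors along the body axis. MEIS binding also helps to keep PBX proteins in the nucleus, and Meis1 and Meis2 are known targets of retinoic acid in embryonal cells. TSHZ proteins are zinc finger factors with an atypical homeodomain, related to Drosophila teashirt, which in the fly acts with Hox genes in the trunk and with the Meis homolog homothorax.

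Gene expression was measured by bulk 3' RNA sequencing of FUCCI embryonic stem cells, a 129/sv line that carries cell cycle phase reporters. Treatment lasted 72 h in serum medium. Per the labels the 3 libraries of a condition were biological triplicates, all of this 1 line. The reference group NS kept LIF, the cytokine that maintains mouse stem cells. ND lacked LIF and received no agent, and RA lacked LIF and received 1 µM retinoic acid. LIF was present in the other 9 groups. One of them, Sorb300, was grown with sorbitol at 300 mM. The 4 toxicants were used at a lower and a higher dose, which name the groups: BP1 and BP4 (1 and 4 µM BP), Cort10 and Cort60 (10 and 60 µM cortisol), DEP5 and DEP10 (5 and 10 µM DEP), and PFOA60 and PFOA100 (60 and 100 µM PFOA). The names BP and DEP are those of the labels. Lower doses had been set at the first observable effect on growth and higher doses at a strong suppression of growth, per the design text. RA differed from NS in both LIF and the agent, while RA and ND differed in the agent alone.

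Libraries held 1848254 to 7288084 counts with a median of 4822563, so that 3 counts stood at 0.412 to 1.62 CPM, the count scaled to a common library total. That range uses raw totals, and the levels below are CPM on TMM-scaled totals, and mean ± SD is over n = 3 libraries. They are compared between conditions and not between genes. All 9 embryonic stem cell markers on the list used (Pou5f1, Nanog and others) were detected in NS, at a summed 3206 to 4056 CPM. In RA their sum was 369 to 652 CPM. In bulk RNA, fewer cells of a type and less RNA per cell cannot be told apart.

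Promoter sequence from RefSeq (build GRCm38.p6) was matched for 5 of the 7 members: Meis1, Meis2, Meis3, Pbx2 and Tshz2. Windows of 300 bases ran from 250 bases before to 50 after the gene start. Meis1 and Meis2, which had large rises with retinoic acid, are shown beside Pbx2, whose level moved little, so that the promoters of strongly and weakly moving members can be compared. Capitals mark the motif letters found, as read on the strand of the gene.

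Meis1 promoter (GRCm38.p6, chr11:19018920-19019219, minus strand): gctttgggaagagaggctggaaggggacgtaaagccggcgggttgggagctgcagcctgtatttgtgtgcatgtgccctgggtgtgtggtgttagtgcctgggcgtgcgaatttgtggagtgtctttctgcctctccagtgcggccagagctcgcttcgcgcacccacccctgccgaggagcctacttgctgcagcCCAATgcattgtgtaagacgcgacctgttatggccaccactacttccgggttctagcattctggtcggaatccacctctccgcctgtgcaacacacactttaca

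Meis2 promoter (GRCm38.p6, chr2:116064570-116064869, minus strand): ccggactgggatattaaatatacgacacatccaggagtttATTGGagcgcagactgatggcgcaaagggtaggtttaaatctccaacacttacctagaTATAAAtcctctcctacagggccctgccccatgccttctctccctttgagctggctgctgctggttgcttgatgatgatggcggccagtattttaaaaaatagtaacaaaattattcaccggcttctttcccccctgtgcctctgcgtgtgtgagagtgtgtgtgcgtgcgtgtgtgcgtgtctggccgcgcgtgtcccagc

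Pbx2 promoter (GRCm38.p6, chr17:34592009-34592308, plus strand): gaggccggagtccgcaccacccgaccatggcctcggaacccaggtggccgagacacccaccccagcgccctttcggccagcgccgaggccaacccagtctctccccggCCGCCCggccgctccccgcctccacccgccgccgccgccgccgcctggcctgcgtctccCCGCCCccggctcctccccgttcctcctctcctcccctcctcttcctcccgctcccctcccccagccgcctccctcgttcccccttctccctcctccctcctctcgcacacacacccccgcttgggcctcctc

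The search covered 7 motifs on both strands: the core element of retinoic acid receptors AGGTCA and its variant AGTTCA, the MEIS site TGACAG, the PBX-HOX site TGATNNAT, the CCAAT box CCAAT, the GC box GGGCGG and the TATA box TATAAA. Among 32851 promoters of the same length, 16.3% held AGGTCA, 14.0% AGTTCA, 19.2% TGACAG, 8.85% TGATNNAT, 37.4% CCAAT, 35.7% GGGCGG and 13.6% TATAAA. The Meis1 window held CCAAT from position -54 to -50 relative to the gene start. The Meis2 window held TATAAA from -152 to -147 and CCAAT on the opposite strand, read as ATTGG, from -210 to -206. The Pbx2 window held the GC box on the opposite strand, read as CCGCCC, from -142 to -137 and from -83 to -78. No marked motif overlapped another. The Pbx2 window was 76.0% G or C with 29 CpG, the Meis1 window 58.3% with 15 and the Meis2 window 51.0% with 13. AGTTCA was found on the opposite strand, as TGAACT, in the Meis3 window (-22 to -17) and the Tshz2 window (-207 to -202). The letters of the other motifs (AGGTCA, the MEIS site and the PBX-HOX site) were not in these 5 windows, which says nothing more about their factors.

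Retinoic acid without LIF raised most of the set over the stem state. In RA, 6 of the 7 members were higher than in NS and 0 were lower, where 10.3% of all tested genes were called higher and 24.1% were called in either direction (edgeR quasi-likelihood test, adjusted p under 0.05). The 6 include Tshz2, which entered the test through RA itself. In all 7 members the RA libraries lay above every NS library, as they did in 21.5% of tested genes. The members' median log2 fold change was 5.17 and that of all tested genes 0.00.

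**Figure D1:**
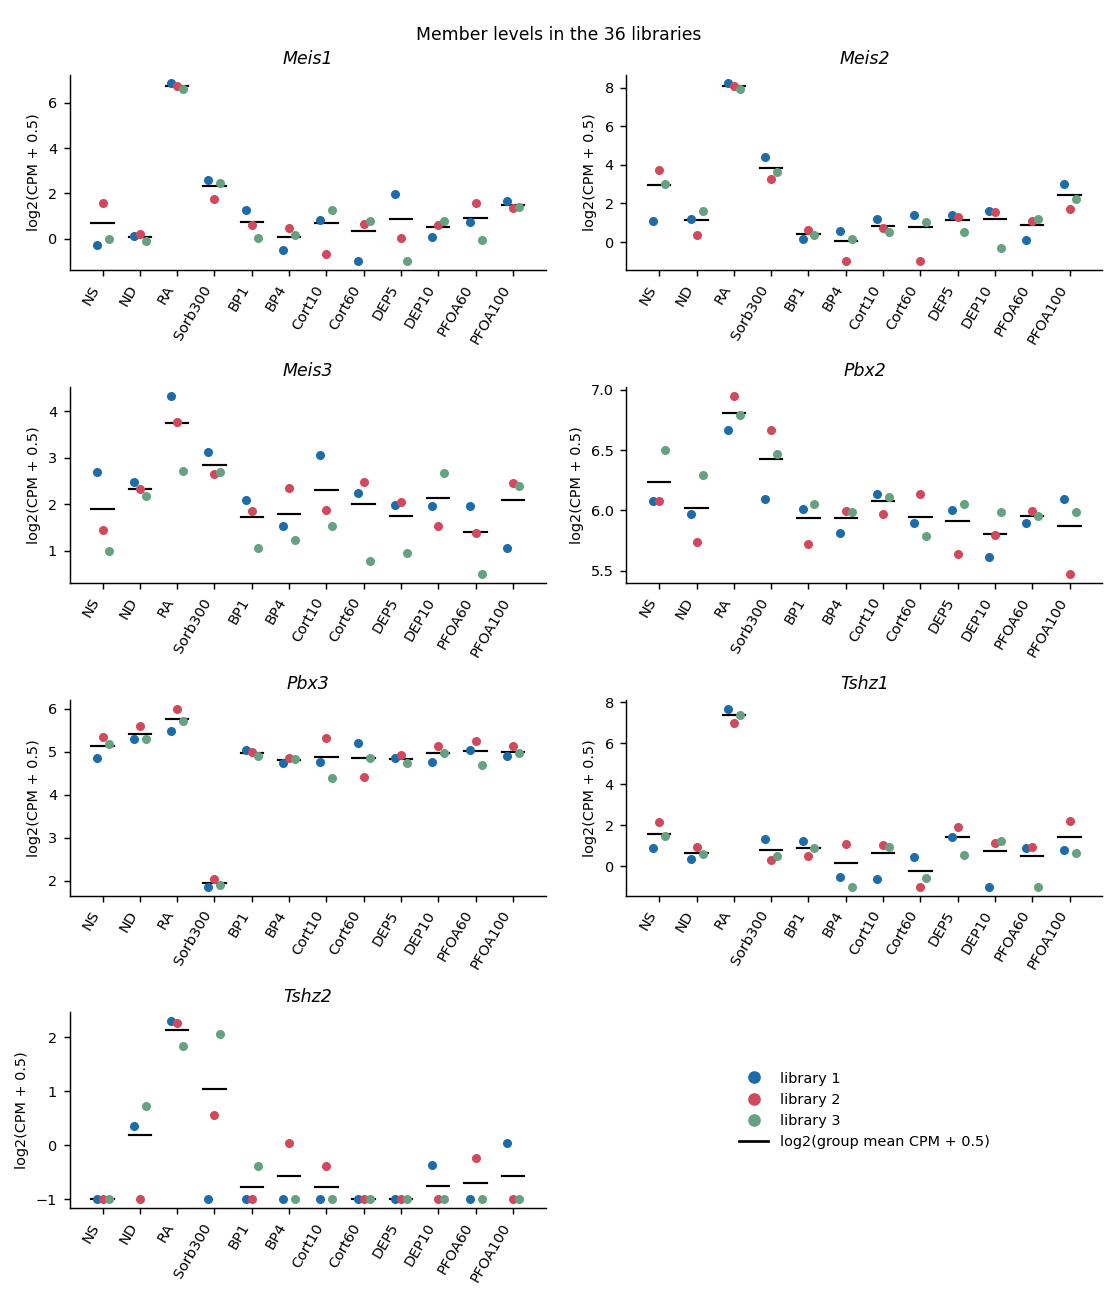
Levels of the 7 members in each of the 36 libraries, as log2(CPM + 0.5) on the vertical axis, by culture condition on the horizontal axis. Points are libraries coloured by replicate number and bars are group means. Meis1, Meis2 and Tshz1 stand far above the other conditions in RA, and Pbx3 stands far below them in Sorb300, with libraries at 3.13 to 3.63 CPM.

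Meis1, a cofactor of HOX and PBX proteins, had 0.332, 2.46 and 0.497 CPM in libraries 1, 2 and 3 of NS and 115, 108 and 97.7 CPM in those of RA. All RA libraries were close together and the low NS libraries were spread, with library 2 the highest. Its mean in RA was 107 ± 8.57 CPM, a 90.8-fold rise (log2 fold change 6.51, SE 0.69, adjusted p = 1.75e-08). The NS libraries held only 1, 10 and 2 counts, so the size of the rise is loosely set. Its log2 fold change was 6.19 to 7.96 when 1 library was left out.

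Meis2, its close paralog, had 1.66, 12.8 and 7.46 CPM in the NS libraries and 296, 275 and 243 CPM in the RA libraries. NS library 1 was the low one and the groups lay far apart. The rise was 36.1-fold (log2 fold change 5.17, SE 0.54, adjusted p = 1.65e-08).

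Tshz1, a zinc finger homeodomain factor, had 1.33, 3.94 and 2.24 CPM in NS and 206, 126 and 167 CPM in RA. Library 2 was the highest of NS and the lowest of RA. The rise was 64.3-fold (log2 fold change 6.01, SE 0.63, adjusted p = 1.68e-08). Leaving out NS library 2 raised the log2 fold change of Meis1 to 7.96 and that of Meis2 to 5.90, and every fit with 1 library left out kept the calls of Meis1, Meis2 and Tshz1.

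Meis3, the third member of its family, rose less. It had 5.98, 2.21 and 1.49 CPM in NS and 19.6, 13.2 and 6.11 CPM in RA, so that the highest NS library came within a small margin of the lowest RA library. The rise was 4.09-fold (log2 fold change 2.03, SE 0.61, adjusted p = 0.0138). The call was lost without NS library 3 (adjusted p = 0.0781) and without RA library 1 (adjusted p = 0.103), and the log2 fold change was 2.83 without NS library 1.

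Tshz2, a paralog of Tshz1, had no count in the NS libraries and 28, 13 and 21 counts in the RA libraries, which is 4.40, 4.27 and 3.05 CPM. Against 3 counts over the NS group it was at least 14.5-fold higher in RA (adjusted p = 0.00777). Its RA level was low but alike in the 3 libraries.

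The Pbx members, partners shared by HOX and MEIS proteins, moved little. Pbx2 had 67.2, 67.1 and 90.0 CPM in NS and 101, 123 and 110 CPM in RA. The groups did not overlap, and the 1.49-fold difference passed the test (log2 fold change 0.57, SE 0.20, adjusted p = 0.0365). The call was lost in 5 of the 6 fits with 1 library left out, all but the one without NS library 3 (adjusted p 0.0531 to 0.120), and without the filter on low counts (adjusted p = 0.0541).

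Pbx3 had 28.3, 40.3 and 35.6 CPM in NS and 44.3, 63.5 and 52.4 CPM in RA. The groups again did not overlap, but the difference missed the threshold (log2 fold change 0.61, SE 0.23, adjusted p = 0.0516). It passed without NS library 2 (log2 fold change 0.81, adjusted p = 0.0309).

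Against ND, which also lacked LIF, 4 of the 7 members were higher in RA and 0 lower, where 8.05% of tested genes were called higher and 18.2% in either direction. RA and NS and RA and ND share the RA libraries, so their values are given side by side only. Meis1 had 0.589, 0.644 and 0.433 CPM in ND, below all RA libraries, with a log2 fold change of 7.53 (SE 0.72, adjusted p = 3.54e-09). Meis2 had 1.77, 0.805 and 2.60 CPM in ND, with a log2 fold change of 7.26 (SE 0.60, adjusted p = 3.57e-10). Both stood lower in ND than on average in NS, and their differences from RA were larger than those between RA and NS. For Meis1 the higher NS mean rests on NS library 2, at 2.46 CPM. NS libraries 1 and 3, at 0.332 and 0.497 CPM, lay below or among the ND libraries. Neither gene passed the edgeR test in ND against NS (adjusted p = 0.633 for Meis1 and 0.0610 for Meis2). Tshz1 had 0.785, 1.45 and 1.01 CPM in ND, with a log2 fold change of 7.22 (SE 0.67, adjusted p = 2.39e-09). Pbx2 had 62.0, 52.8 and 77.9 CPM in ND, all under the lowest RA library, and was 1.73-fold higher in RA (log2 fold change 0.79, SE 0.20, adjusted p = 0.00530). That call was lost without ND library 2 (adjusted p = 0.0503).

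The other members did not pass against ND. Meis3 had 5.10, 4.51 and 4.04 CPM in ND, below the RA libraries, with a log2 fold change of 1.51 (SE 0.57, adjusted p = 0.0639). It passed without RA library 3 (log2 fold change 1.85, adjusted p = 0.0365). Tshz2 had 0.785, 0 and 1.15 CPM in ND and a log2 fold change of 2.53 (SE 1.17, adjusted p = 0.139). Pbx3 had 38.7, 48.3 and 39.0 CPM in ND and overlapped with RA (log2 fold change 0.34, SE 0.23, adjusted p = 0.333). In 6 of the 7 members the RA libraries lay above all ND libraries, as in 20.9% of tested genes.

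**Figure D2:**
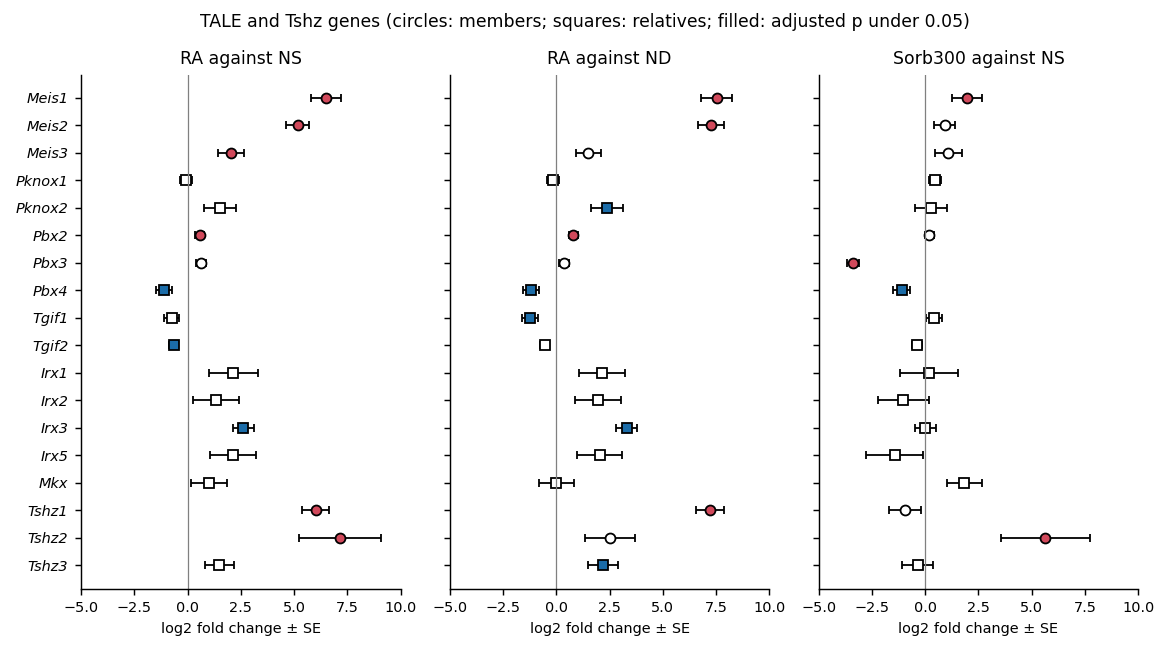
Log2 fold change with its SE (horizontal axis) for the 7 members (circles) and tested TALE and Tshz relatives (squares) in 3 comparisons. Filled symbols have an adjusted p under 0.05. Pbx2 at 0.57 and Pbx3 at 0.61 lie close to each other in RA against NS, and Pbx3 lies at -3.37 in Sorb300 against NS. The fitted value of Tshz2 rests on 0 counts in NS and is no measure of size.

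Relatives outside the set give the family context. Of 14 listed, 12 were tested, and in RA against NS 2 rose and 2 fell, with a median log2 fold change of 1.42 against 0.00 for all tested genes. Irx3, an Iroquois factor of neural patterning, rose 6.11-fold to 54.5 ± 18.1 CPM (adjusted p = 0.000200). Tgif2, a TALE repressor of the TGF-beta pathway, fell 1.57-fold (adjusted p = 0.0269). Pbx4 was the other relative that fell (log2 fold change -1.09, adjusted p = 0.0323) and is named after its value was seen. Irx6 had no count in RA or NS. Against ND, 4 relatives were higher in RA and 2 lower.

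Of 12 tested cofactors of these proteins, 2 rose and 1 fell in RA against NS. Pbxip1, which encodes a PBX-interacting protein, rose 3.77-fold (adjusted p = 1.13e-05), Crtc3, a CREB coactivator, rose 12.7-fold from 1.05 to 13.3 CPM (adjusted p = 0.000128), and the corepressor gene Ctbp2 fell 3.03-fold (adjusted p = 0.000626). The list's median log2 fold change was 0.12. HOX proteins are the main DNA-binding partners of MEIS and PBX. Of 23 tested Hox genes of paralog groups 1 to 9, 20 rose and 0 fell, with a median log2 fold change of 5.41. Of all tested genes 10.3% were called higher and 24.1% in either direction. The summed Hox list stood at 904 to 1088 CPM in RA and at 55.1 CPM or less in every other library. Many Hox genes may have entered the test through RA and could hardly fall, so their count is a description. Hoxb4 had 122 ± 16.6 CPM in RA and 3.95 ± 3.71 CPM in NS. Of 12 retinoid response genes 8 rose and 1 fell, among them the retinoic acid carrier gene Crabp2 (6.98-fold higher) and the receptor gene Rarg (3.46-fold lower).

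Markers of other cell types moved in the same comparison, where 10.3% of all tested genes were called higher and 24.1% in either direction. Markers near 0 in NS, such as Foxa2 at 0.497 CPM against 47.5 CPM in RA, could hardly fall. They may have entered the test through RA, so the counts of markers are a description. Of 9 tested extraembryonic endoderm markers 7 rose and 0 fell, and their summed level was 155 to 395 CPM in RA against 29.3 to 33.9 CPM in NS, where Ttr was at 0. Of 8 fibroblast markers 6 rose and 1 fell, at a summed 410 to 513 CPM in RA against 54.9 to 107 CPM. Of 8 trophoblast markers 4 rose and 1 fell, at a summed 1083 to 1941 CPM against 330 to 412 CPM, with Elf5 at 0 in RA. For mesoderm and heart 2 of 7 rose and 1 fell (48.6 to 89.4 against 26.9 to 45.5 CPM, Tbx5 at 0 in NS). Neural markers gave 0 that rose and 1 of 5 that fell (42.5 to 92.8 against 65.6 to 112 CPM, with Dcx and Neurog2 at 0 in NS). Hindbrain and neural crest genes gave 3 of 7 that rose and 1 that fell (188 to 372 against 84.9 to 92.4 CPM, with Tcfap2b and Pax3 at 0 in NS). All 9 stem cell markers fell. The part of these cell types in the rise of the members was not tested.

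Removal of LIF alone changed none of the members past the threshold in the edgeR model without the replicate number. Meis2 passed as lower in some other fits. In ND against NS 0 of 7 were called by edgeR, where 1.19% of tested genes were. An unadjusted p under 0.05 was found for 2 members and for 1683 of the 13498 tested genes. DESeq2 called 1 member, Meis2 (adjusted p = 0.0180), and 328 genes. Meis2 averaged 1.72 ± 0.897 CPM in ND and 7.30 ± 5.57 CPM in NS. The groups overlapped because NS library 1, at 1.66 CPM, lay among the ND libraries (log2 fold change -2.09, SE 0.57, adjusted p = 0.0610). With the replicate number as a block, which pairs these groups, Meis2 passed (log2 fold change -2.13, adjusted p = 0.0249). It also passed without NS library 1 (log2 fold change -2.52, adjusted p = 0.00640). Tshz2, the other member with a small unadjusted p, had 12 counts over the ND group and 0 in NS, which is at least 2.39-fold higher (adjusted p = 0.359). The other 5 members had log2 fold changes of -1.21 (Tshz1) to 0.53 (Meis3), with adjusted p of 0.477 to 0.748. In the same comparison 2 of 23 Hox genes, among them Hoxb4, and 2 of 12 retinoid response genes, among them Stra8, fell and 0 rose. Among the relatives 0 of 12 were called.

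Sorbitol at 300 mM, a hyperosmotic medium, gave a different picture, with Pbx3 as its main feature. Against NS, 3 members were called, 2 higher and 1 lower, where 30.4% of tested genes were called, 15.1% higher and 15.2% lower. Pbx3 had 3.13, 3.63 and 3.22 CPM in the Sorb300 libraries (17, 15 and 7 counts) against 28.3, 40.3 and 35.6 CPM in NS. The sorbitol libraries were nearly alike and lay far below every other library of the study, the next lowest being at 20.5 CPM. The fall was 10.4-fold (log2 fold change -3.37, SE 0.28, adjusted p = 4.35e-10), and its log2 fold change stayed between -3.52 and -3.25 when any 1 library was left out.

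Pbx2 did not follow. It had 67.8, 101 and 88.2 CPM in Sorb300 and overlapped with NS (log2 fold change of 0.19, SE 0.20, adjusted p = 0.503). The ratio of Pbx3 to Pbx2 counts within a library, which needs no scaling between libraries, was 0.0361 to 0.0461 in Sorb300. In NS it was 0.395 to 0.601, and over the 33 libraries outside Sorb300 it was 0.295 to 0.915. The ratio therefore separated sorbitol from all other conditions, RA included at 0.437 to 0.516. Of the 12 tested relatives, 2 also fell in sorbitol, among them Pbx4 (log2 fold change -1.10, adjusted p = 0.0289), and 0 rose. Of the tested cofactors 5 of 12 rose and 0 fell.

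**Figure D3:**
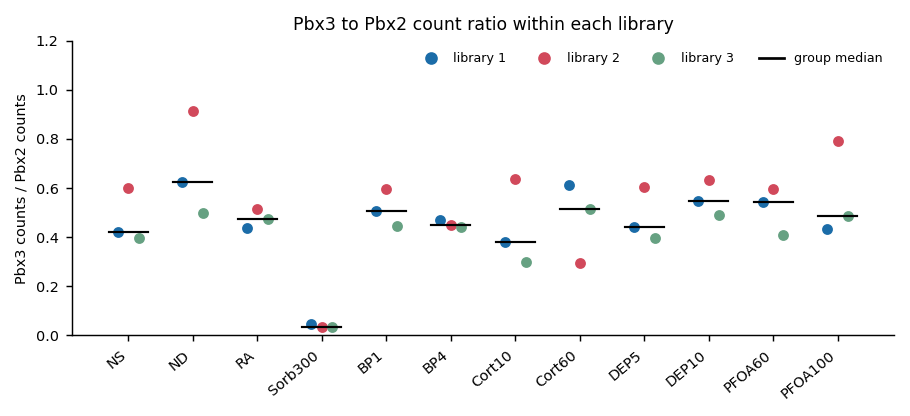
Ratio of Pbx3 counts to Pbx2 counts (vertical axis, linear, from 0) within each of the 36 libraries, by culture condition. Points are libraries coloured by replicate number and bars are group medians. The 3 Sorb300 libraries lie at 0.0361 to 0.0461 and the other 33 at 0.295 to 0.915.

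The Meis and Tshz members stood at low levels in sorbitol. Meis1 had 5.51, 2.91 and 5.05 CPM, all above the highest NS library at 2.46 CPM, and passed the test (log2 fold change 1.94, SE 0.70, adjusted p = 0.0339). The call was lost without Sorb300 library 1 (adjusted p = 0.0926), Sorb300 library 3 (0.0716), NS library 1 (0.120) or NS library 3 (0.149), and in a fit on these groups alone (0.108). It had a log2 fold change of 3.31 without NS library 2. Tshz2 had 0, 4 and 8 counts in Sorb300 against none in NS, at least 5.73-fold higher over the group (adjusted p = 0.0406). A sorbitol library had no count and so overlapped with NS, and the call was lost in 5 of the 6 fits with 1 library left out (without Sorb300 library 2 or 3 or any NS library, adjusted p 0.0587 to 0.196) and by DESeq2 (adjusted p = 0.101).

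Meis2 had 20.6, 9.21 and 11.9 CPM in Sorb300 and shared part of the NS range (log2 fold change of 0.91, SE 0.50, adjusted p = 0.166). It passed without NS library 2 (log2 fold change 1.56, adjusted p = 0.0443). Meis3 had 8.27, 5.82 and 5.97 CPM (log2 fold change 1.09, SE 0.61, adjusted p = 0.178). Tshz1 had 2.02, 0.727 and 0.919 CPM (log2 fold change -0.95, SE 0.73, adjusted p = 0.342). Its log2 fold change was -1.65 without Sorb300 library 1. In the same groups the stem cell markers summed to 3430 to 3975 CPM in Sorb300, within the NS range, and 2 of 9 rose and 1 fell. Fibroblast markers summed to 27.1 to 34.9 CPM, with Dcn, Lum and Postn at 0, and 2 of 8 fell. Extraembryonic endoderm markers (66.6 to 111 CPM) had 3 of 9 that rose, neural markers (114 to 321 CPM, with Neurog2 and Zfp521 at 0) 1 that rose and 2 that fell of 5, and hindbrain and neural crest genes (290.4 to 497 CPM, with Egr2 at 0) 3 of 7 that rose. Trophoblast markers (421.5 to 1046 CPM) had 6 of 8 that rose, and mesoderm and heart markers (118 to 252 CPM) 1 that rose and 1 that fell of 7. Their part in the sorbitol values was not tested.

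Set against each other, RA and Sorb300 differed in 4 of 7 members, all higher in RA, where 17.5% of tested genes were called higher and 38.1% in either direction. They were Meis1 (log2 fold change 4.57), Meis2 (4.26), Pbx3 (3.99) and Tshz1 (6.96), with adjusted p of 3.51e-07 or less. Pbx3 was 15.9-fold higher in RA (SE 0.29, adjusted p = 1.47e-12), and Tshz1 was 124-fold higher (SE 0.68, adjusted p = 1.44e-09), or at a log2 fold change of 7.66 without Sorb300 library 1. Meis3, Pbx2 and Tshz2 were 1.92-fold, 1.30-fold and 2.83-fold higher in RA and did not pass (adjusted p 0.138 to 0.322). Pbx2 passed without Sorb300 library 2 (log2 fold change 0.61, adjusted p = 0.0444).

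No member passed the edgeR test in a toxicant group, all of which kept LIF. In each of the 8 toxicant groups 0 of 7 passed against NS by edgeR, where 0% of tested genes were called in 7 of the groups and 0.0741% in PFOA60. At an unadjusted p under 0.05 there were 2 members in BP4, Cort60 and DEP10, 1 in BP1, Cort10, DEP5 and PFOA60, and 0 in PFOA100. Of the 13498 tested genes, 458, 817 and 614 had such a p in BP4, Cort60 and DEP10. The number was 351, 520, 505 and 1014 in BP1, Cort10, DEP5 and PFOA60, and 652 in PFOA100. DESeq2 called Meis2 lower in BP1 (adjusted p = 0.0286), BP4 (adjusted p = 0.0156) and PFOA60 (adjusted p = 0.0187). How many of all genes DESeq2 called in these groups is not given, so its calls of Meis2 are a description. The comparisons of toxicant groups with NS share the NS libraries and are not independent of each other.

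Meis2 was the member that lay lowest against NS in most toxicant groups. It had 0.629, 1.04 and 0.794 CPM in BP1 and 0.997, 0 and 0.616 CPM in BP4, all below the lowest NS library at 1.66 CPM. In counts these were 3, 7 and 3 in BP1 and 5, 0 and 1 in BP4, against 5 in that NS library. The gap therefore rests on few reads. In both groups the libraries did not overlap with NS, as was the case for lower values in 4.40% and 4.95% of tested genes. The log2 fold changes were -3.11 (SE 0.65, adjusted p = 0.473) and -3.84 (SE 0.76, adjusted p = 0.0960).

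In Cort10 Meis2 had 1.76, 1.19 and 0.955 CPM, and in Cort60 2.11, 0 and 1.55 CPM. It had 2.17, 1.92 and 0.950 CPM in DEP5 and 2.54, 2.41 and 0.309 CPM in DEP10. Each of these groups overlapped with NS through library 1 of NS. PFOA60, at 0.595, 1.59 and 1.83 CPM, overlapped as well (log2 fold change -2.60, SE 0.63, adjusted p = 0.109).

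PFOA100 stood apart, at 7.58, 2.82 and 4.22 CPM of Meis2, above every library of PFOA60 and of the other toxicants. Against NS its log2 fold change was -0.60 (SE 0.53, adjusted p = 0.995). Against PFOA60 Meis2 was 3.99-fold higher (SE of the log2 fold change 0.65, unadjusted p = 0.00424, adjusted p = 1), with no overlap, as for higher values in 2.34% of tested genes. PFOA100 library 1, the highest at Meis2, was also the highest of its group in 10 of the 11 summed lists. Its stem cell markers stood at 3960 CPM against 2450.2 and 2592 CPM in libraries 2 and 3, its Hox list at 25.0 against 14.8 and 15.8 CPM, its retinoid list at 311 against 204 and 234 CPM and its fibroblast list at 46.4 against 28.5 and 12.7 CPM. The part of these in the Meis2 values was not tested. Without that library the log2 fold change of Meis2 against NS was -1.18 (adjusted p = 0.689).

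**Figure D4:**
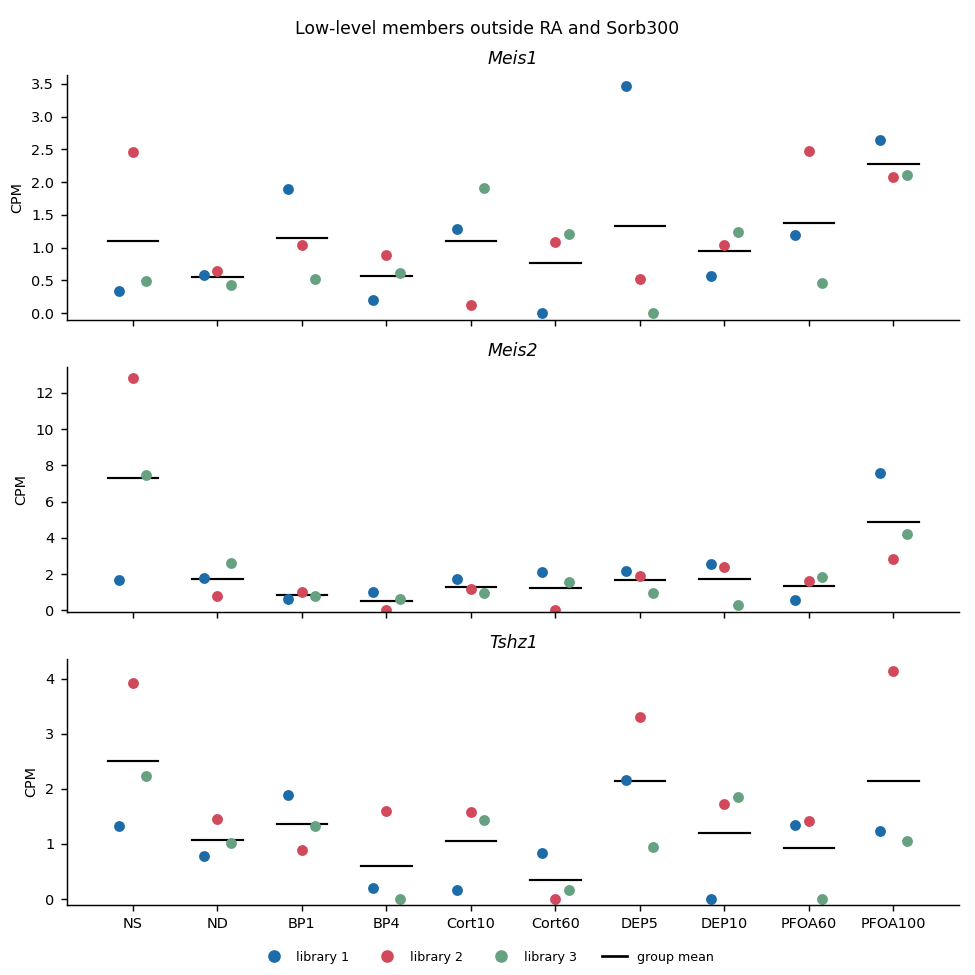
CPM of Meis1, Meis2 and Tshz1 (vertical axes, linear) in each library of NS, ND and the 8 toxicant groups. Points are libraries coloured by replicate number and bars are group means. NS libraries 2 and 3 stand at 12.8 and 7.46 CPM of Meis2, and NS library 1 at 1.66 CPM lies among the other groups.

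The NS libraries decide how far these groups stand from the reference. Of the 27 ND and toxicant libraries, 27 lay below NS library 2 at Meis2, 26 below NS library 3 and 15 below NS library 1. No share of all genes is given for these counts, so they are a description. Without NS library 1, Meis2 passed the test as lower in BP1 (adjusted p = 0.0178), BP4 (0.00723), Cort10 (0.0394), Cort60 (0.0340) and PFOA60 (0.0115). The share of all genes called in these fits is not given, so these calls are a description. With NS library 1 as the only NS library, an alternative chosen after seeing the data, the log2 fold change of Meis2 was 0.04 in DEP5, 0.12 in DEP10 and 1.60 in PFOA100. In that fit it stayed negative but smaller in size in BP1 (-0.91), BP4 (-1.64), Cort10 (-0.23), Cort60 (-0.33) and PFOA60 (-0.41). Of the 11 gene and marker lists, 3 had the same order of NS libraries as Meis2, with library 2 highest and library 1 lowest. The summed Hox list stood at 5.98, 55.1 and 20.6 CPM in libraries 1, 2 and 3 of NS, the retinoid list at 302, 618 and 524 CPM and the fibroblast list at 54.9, 107 and 58.4 CPM. The other 8 lists had other orders, such as the stem cell markers at 4056, 3720 and 3206 CPM, the neural markers at 112, 72.6 and 65.6 CPM and the mesoderm and heart markers at 26.9, 34.2 and 45.5 CPM. Their part in the Meis2 values was not tested.

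The other members also missed the threshold against NS in the toxicant groups. Pbx2 lay lower than NS without overlap more often than Meis2 did, in 5 groups against 2, and 20 of the 24 toxicant libraries were below its lowest NS library, against 14 for Meis2. The groups were BP1, BP4, DEP5, DEP10 and PFOA60, where 4.40%, 4.95%, 4.53%, 5.30% and 6.96% of tested genes lay lower without overlap. All were set against the same NS libraries. No share of all genes is given for the counts over groups or over the 24 libraries, so those counts are a description. The differences were small: Pbx2 had log2 fold changes of -0.43 to -0.16 and Pbx3 of -0.34 to -0.12, with SE between 0.20 and 0.24 and no adjusted p under 0.828. Meis1 lay at -0.98 to 0.99 and Meis3 at -0.44 to 0.55, with smallest adjusted p of 0.948 and 0.953. Tshz1 lay at -3.07 to -0.10. Its lowest group was Cort60, at 0.844, 0 and 0.172 CPM, below all NS libraries, as 8.16% of tested genes were in that group (adjusted p = 0.622). Tshz2 had at most 3 counts in any toxicant group, and none in Cort60 and DEP5.

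Between the lower and the higher dose of each toxicant, 0 of 7 members were called in 4 comparisons, where 0% of tested genes were. The 1 member with an unadjusted p under 0.05 was Meis2 in PFOA, where 250 of the 13498 tested genes had such a p. A test of whether the dose effect differed among the 4 toxicants called 0 members and 0% of tested genes.

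Ordered by group mean, few neighbouring conditions were separate beyond the spread of their libraries. Meis1 had RA, then Sorb300, then PFOA100, with no overlap at either step, and the 9 lower steps overlapped. Meis2 had RA apart from Sorb300, and PFOA100 apart from DEP10 below it. For Meis3 the one step without overlap was from Sorb300 to ND, for Pbx2 from RA to Sorb300, for Tshz1 from RA to NS, and for Pbx3 from BP4 down to Sorb300. No neighbouring pair was separate for Tshz2. The steps were taken after the means of these same libraries had been ordered. The share of all genes with such steps is not given, so whether they are unusual cannot be read from them.

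The genes whose log2 CPM was most like each member's over the 36 libraries were named from 9511 candidates by Pearson's r, as a description. The 36 points share 12 conditions, so a few conditions carry these values. For Meis1 they were Osr1 (r = 0.90), Hoxb8 (0.89) and Nr2f2 (0.89), and for Meis2 Igf2 (0.92), Hoxb4 (0.91) and Basp1 (0.89). For Tshz1 they were Peg3 (0.91), Hoxb6 (0.90) and Hoxb5 (0.90). These lists hold genes that stood high in RA, such as Igf2 at a mean of 1751 CPM in RA and 78.2 CPM in NS. For Pbx3 they were Igf2bp3 (0.93), Tead2 (0.91) and Slc1a5 (0.91), and for Pbx2 Lama1 (0.82), Maged1 (0.81) and F11r (0.81). For Meis3 they were H13 (0.81), Ptrh2 (0.77) and Smarca2 (0.75), and for Tshz2 Mapkapk2 (0.87), Krt18 (0.84) and Pxn (0.83). Among the members, Meis1 and Meis2 had r = 0.86 over 36 libraries and 0.49 over the 33 without RA, and Meis1 and Tshz1 0.85 and 0.28.

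Overlapping genes limit some of these counts. Pbx2 overlaps Gpsm3 on the same strand in GENCODE M21, and Gpsm3 has its own row, at 7.81 CPM in NS and 13.3 CPM in RA. Tshz2 overlaps Gm26883 on the opposite strand and Meis1 overlaps Gm37818 on the same strand, and neither has a row in the tables. No source used here gives the strand setting of the counting, so reads of such pairs could be shared or split.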

How the data were processed

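Counts per gene were deposited by the authors in 11 tables, 1 per condition against NS, as raw counts with no normalization. Per the submitters' processing notes the build was mm9 and the tools included STAR, HTSeq, edgeR and CASAVA 1.8.2. Their roles and settings, the annotation and the strand used in counting are not stated there. Groups came from the sample labels. Genes were filtered with filterByExpr and scaled by TMM, and 1 model of 12 group means was fitted to 36 libraries (edgeR 4.0.16 in R 4.3.3, robust glmQLFit, 24 residual degrees of freedom). Each of 17 pairs of groups was tested by quasi-likelihood, with Benjamini-Hochberg adjustment over 13498 genes and a threshold of 0.05. SE were obtained as the size of the log2 change over the root of the F statistic. Log2 CPM for likeness used a prior count of 2. A group at 0 was given a floor of 3 counts over the group. The lower bounds and the range of 3 counts cover counting error only. The script was tested on simulated counts.

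The members and the context lists were chosen with earlier results of these data known. All members are named, and some list genes that the rule would name are not reported here. By rule, the 3 genes most like each member (mean of at least 10 CPM in a group) and up to 3 per list with the smallest adjusted p in RA or ND against NS are named. Replicate numbers were taken to pair groups where every same-number pair of deviations from group means correlated above 0.1, which held in 10 of the 17 comparisons, ND against NS among them (lowest r 0.160). Alternatives were size factors by median ratio, no filter, a replicate block, only the groups compared, DESeq2 1.42.0, each library left out in turn, raw totals for CPM, and NS library 1 alone.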

Additional observations from a re-analysis of the deposited data

How the results depend on the processing

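The rises of Meis1, Meis2 and Tshz1 in RA against NS and against ND, and the fall of Pbx3 in Sorb300, kept their direction and call under every alternative run. The calls of Pbx2, Meis3 and Tshz2, and of Meis1 in Sorb300, rest on few libraries or few counts. The number of members called varied from 4 to 6 in RA against NS, 0 to 1 in ND against NS, 3 to 5 in RA against ND, 1 to 3 in Sorb300 against NS and 4 to 5 in RA against Sorb300 when 1 library was left out. It varied from 0 to 1 in BP1, BP4, Cort10, Cort60 and PFOA60 against NS, and was 0 in the other toxicant comparisons. Over all genes the calls ran from 1886 to 2867, 32 to 312, 1509 to 2005, 2949 to 4922 and 3641 to 6122 in the first 5 comparisons, in that order. Those of the toxicant comparisons under the alternatives are not given.

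DESeq2 called 1 member in each of ND, BP1, BP4 and PFOA60 against NS, and 328 genes in ND against 161 by edgeR. With the replicate number as a block 1 member and 552 genes were called in ND against NS. With the block Pbx3 in RA against NS (log2 fold change 0.61, adjusted p = 0.0291) and Meis3 in RA against ND (1.39, adjusted p = 0.0447) also passed, in comparisons that the numbers were not taken to pair, and 33 of 36 libraries correlated best with their own number. Pbx3 in RA against NS also passed with median-ratio size factors (0.70, adjusted p = 0.0285) and DESeq2 (0.70, adjusted p = 0.0149). Meis3 in RA against ND passed with those size factors (adjusted p = 0.0493), DESeq2 (adjusted p = 0.0385) and only the groups compared (adjusted p = 0.00637), as did Tshz2 in the last fit (adjusted p = 0.0116). Only the groups compared gave 4072 genes in RA against ND (2450 in the model of all groups), and 1 member and 2284 genes in Sorb300 against NS (3 and 4102). In that Sorb300 fit Tshz1 and Tshz2 were left out by the filter and not tested, and Meis1 did not pass (adjusted p = 0.108).

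With NS library 1 alone, the lone library being assumed to vary like the other groups, 3 members and 1354 genes were called in RA against NS (6 and 3259 with all NS libraries), 1 gene in ND against NS and 1433 genes in Sorb300 against NS. The sign then turned in ND for Meis1 (0.73), Meis2 (0.11) and Meis3 (-0.35), and for Meis2 in DEP5 (0.04), DEP10 (0.12) and PFOA100 (1.60), none of them called. Without NS library 2 it turned for Meis1 in ND (0.38, in a range of -1.38 to 0.38 over the libraries left out) and for Meis2 in PFOA100 (0.085, in a range of -1.18 to 0.085). On raw library totals the RA means were 129 CPM for Meis1, 329 for Meis2, 135 for Pbx2, 64.7 for Pbx3 and 4.73 for Tshz2. The RA libraries had TMM factors of 1.22, 1.18 and 1.25, so raw totals give higher CPM there. The cause of the changes with the choice of NS libraries was not tested. At these depths, members under about 1 CPM rest on a few counts, and differences among them were not detectable.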
